A study of Mus musculus with 2 samples.

Results

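The genes described here encode the subunits of ligand-gated ion channels, receptors that open an ion pore when a transmitter binds. They were chosen by symbol, as every protein-coding gene of GENCODE M21 that begins with Chrn, Gabr, Gria, Grid, Grik, Grin, Glra, Glrb, P2rx or Htr3. The rule found 68 of the 55536 annotated genes, or 68 of the 22015 nuclear protein-coding genes, and it used no measured value. Of these, 67 encode subunits, and 1 gene that encodes a receptor-binding protein matched by its symbol. Total RNA was measured in the adrenal gland of 2 adult B6CASTF1/J males, F1 crosses of C57BL/6J with CAST/EiJ aged 8 to 10 months. The 2 animals form 1 group, called replicate 1 (animal 2) and replicate 2 (animal 4), so the design holds no contrast of conditions. Whole glands mix cortex and medulla, so fewer cells of a type and less RNA per cell cannot be told apart.

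Ligand-gated channels fall into families of separate ancestry. The Cys-loop family (nicotinic acetylcholine, serotonin type 3, GABA type A and glycine receptors) builds a ring of subunits around its pore, the ionotropic glutamate receptors (AMPA, kainate, NMDA and delta) form assemblies of another fold, and the P2X receptors open to extracellular ATP. In the adrenal medulla, splanchnic nerve endings release acetylcholine onto chromaffin cells, whose ganglionic nicotinic receptors, built largely from the alpha3 and beta4 subunits, depolarise the cell and start catecholamine release. Most other members are best known from neurons.

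The Cys-loop members share a short coding stretch that marks the family, and it is printed here because it ties together genes whose levels differed widely. It runs over 15 codons, from a first cysteine codon to a last one with 13 codons between them, and holds a proline codon and an aspartate codon at fixed places. This pattern stood in the longest coding sequence of 42 of 42 Cys-loop members, of 0 of 18 glutamate receptor members and of 0 of 7 P2X members. Over all coding genes, these members included, it stood in 69 of 21742 (0.317%). The stretches below are the reference sequence of the mm10 GENCODE M21 transcripts, 5′ to 3′ on the gene's own strand, with the cysteine, proline and aspartate codons in capitals.
Chrna3: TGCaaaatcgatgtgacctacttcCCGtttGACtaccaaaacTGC
Chrnb4: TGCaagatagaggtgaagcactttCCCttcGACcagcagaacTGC
Chrna7: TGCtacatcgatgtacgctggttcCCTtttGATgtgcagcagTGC
Chrna4: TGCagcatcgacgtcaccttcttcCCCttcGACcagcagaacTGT
Htr3a: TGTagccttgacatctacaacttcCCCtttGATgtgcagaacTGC
Gabra3: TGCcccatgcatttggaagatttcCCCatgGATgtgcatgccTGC
Glrb: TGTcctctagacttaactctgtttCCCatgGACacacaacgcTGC
The stretch of Chrna3 lies at chr9:55016007-55016051 in exon 5, that of Chrnb4 at chr9:55035491-55035535 in exon 5 and that of Chrna7 at chr7:63107658-63107702 in exon 6, all on the minus strand. Over these 45 bases Chrnb4 shared 73.3% of positions with Chrna3, Chrna7 66.7%, Chrna4 75.6%, Htr3a 62.2%, Gabra3 53.3% and Glrb 51.1%. The nicotinic stretches printed were thus closer to Chrna3 than those of the other transmitter classes.

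Levels are given in TPM, a share of all transcripts that divides counts by transcript length so that genes can be set side by side. Detection meant at least 1 TPM in each animal. By that rule 19 of the 68 members (27.9%) were detected, against 56.3% of the 22015 nuclear coding genes. Replicate 1 alone had 20 members at that level and replicate 2 had 22. The median member stood at a mean of 0.305 TPM, against 2.84 over coding genes, and 24 members lay under 0.1 TPM in both animals. Expected counts, the estimated reads per gene, were at 0 in both animals for 8 members and in 1 animal only for 10. Where a member was at 0, the 3 counts that such a value allows equal 0.0216 to 0.108 TPM in replicate 1 and 0.0201 to 0.161 TPM in replicate 2, so lower levels were not detectable. All members together held 154.7 TPM in replicate 1 and 169.7 TPM in replicate 2, which is 0.0423% and 0.0445% of the nuclear coding TPM. The detected members reached from Grik4, with 1.11 ± 0.0849 TPM (SD, n = 2), to Gria3, with 22.9 ± 4.37 TPM.

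**Figure D1:**
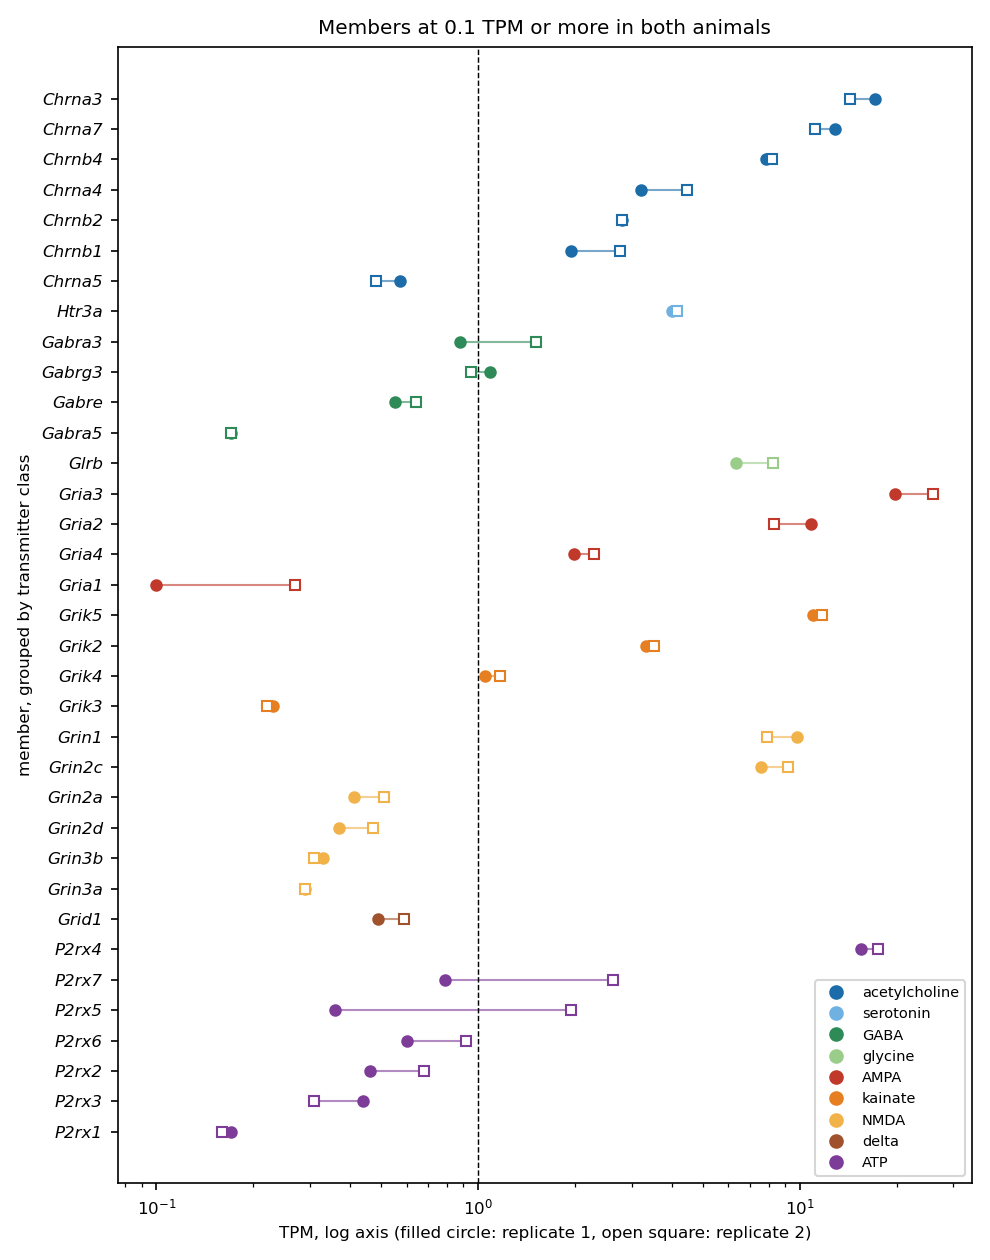
TPM of 35 members at 0.1 TPM or more in both animals, on a log axis, grouped and coloured by transmitter class; filled circles are replicate 1, open squares replicate 2, and the dashed line is the detection level of 1 TPM. The 17 detected members shown lie to the right of the line in both animals, and P2rx7, P2rx5 and Gabra3 cross it only in replicate 2, Gabrg3 only in replicate 1.

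The 2 libraries held 29994901 and 33987434 expected counts on annotated genes, of which the members took 14082 and 16617. Markers of the labelled tissue were present: 14 of 14 chromaffin cell genes and 8 of 8 adrenal cortex genes were detected, as were 5 of 8 neuronal genes. The libraries also differed in markers of several cell types. All 7 adipocyte markers and all 4 brown adipocyte markers lay at least 2-fold above replicate 1 in replicate 2, their summed levels being 212.5 against 1846 TPM and of 16.8 against 233 TPM. Macrophage markers were higher by 1.10 to 1.79 times in replicate 2 (8 of 8, summed 209 against 337 TPM), and the chromaffin markers summed to 4383 TPM in replicate 1 and 3156 TPM in replicate 2. Cortex markers summed to 22912 and 18708 TPM and smooth muscle and pericyte markers to 127 and 81.0 TPM, while those of Schwann and sustentacular cells summed to 14.8 and 29.1 TPM, S100b alone being at 1.42 and 13.2 TPM. Of 7 skeletal muscle markers 1 was detected, Mylpf at 2.04 and 2.30 TPM. Acta1 had 22 and 67 counts (2.62-fold higher in replicate 2, 1.60 to 4.45), and Ckm, Myh4 and Mb had 0 in both animals.

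The nicotinic acetylcholine receptor class held the highest summed level, 46.8 TPM in replicate 1 and 44.4 TPM in replicate 2, and 6 of its 16 members were detected. Chrna3, the alpha subunit of the ganglionic receptor (chr9:55010111-55026562, minus strand), stood at 17.2 TPM in replicate 1 and 14.4 TPM in replicate 2. Chrna7, whose product forms receptors of a single subunit type with high calcium permeability (chr7:63098692-63212569, minus strand), stood at 12.9 and 11.2 TPM, and the unclassed gene Gm44741 that overlaps it on the same strand had 50 and 43 counts. Chrnb4, the ganglionic beta subunit (chr9:55028154-55048779, minus strand), stood at 7.88 and 8.22 TPM. These 3 genes made up 81.0% of the class in replicate 1 and 76.0% in replicate 2. Chrna3 exceeded Chrna7 by 1.33 and 1.28 times, and Chrnb4 by 2.18 and 1.75 times, so the order Chrna3, Chrna7, Chrnb4 held in both animals.

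The other detected nicotinic genes were lower. Chrna4 and Chrnb2 encode the subunits of the most common nicotinic receptor of brain. Chrna4 stood at 3.20 and 4.47 TPM and Chrnb2 at 2.81 and 2.80 TPM, so Chrnb4 exceeded Chrnb2 by 2.80 and 2.94 times. Chrnb2 overlaps Adar, which lies on the opposite strand with 1924 and 2132 counts, and whether the authors' counting used the strand is not given in the sources used here, so its level is uncertain. Chrnb1, the beta subunit of the muscle receptor, stood at 1.95 and 2.76 TPM while the remaining muscle subunits Chrna1, Chrnd, Chrne and Chrng were between 0 and 0.03 TPM. Chrna5, an accessory subunit that joins receptors of Chrna3 and Chrnb4 products and lies beside their genes, stayed under the detection level with 0.57 and 0.48 TPM. Chrna3 exceeded it by 30.1 and 29.9 times, although the 3 genes span only 67.9 kb of chromosome 9. Chrna2, Chrna6, Chrna9, Chrna10 and Chrnb3 lay between 0 and 0.21 TPM, although the kallisto-format tables gave Chrna2 0.480 and 0.306 TPM.

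Serotonin receptor RNA came almost wholly from Htr3a. This gene, whose product can form a channel alone, stood at 4.02 and 4.15 TPM (213 and 239 counts). Htr3b, whose product needs Htr3a to form a channel, stood at 0.03 and 0.09 TPM from 2 and 6 counts.

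GABA type A receptor genes formed the largest class by number, and 2 of 19 were detected. The class summed to 10.4 TPM in replicate 1 and 14.7 TPM in replicate 2. Gabra3, an alpha subunit, crossed 1 TPM in replicate 2 only, with 0.88 and 1.51 TPM. Gabrg3 lay just outside the detection rule with 1.09 and 0.95 TPM, beside Grik4 just inside it with 1.05 and 1.17 TPM. Of this class 11 members were under 0.1 TPM in both animals, and Gabra6, Gabrg1 and Gabrp were at 0 counts in both.

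Of the 5 glycine receptor genes 1 was detected. Glrb, the beta subunit, which anchors the receptor through gephyrin and forms no channel alone, stood at 6.35 and 8.24 TPM. Glra1, Glra2 and Glra3, which encode ligand-binding alpha subunits, were at 0 counts in both animals in the RSEM-format tables, and Glra4 had 4 and 1 counts (0.08 and 0.02 TPM). In the kallisto-format tables Glra3 stood at 0.164 and 0.318 TPM. By the RSEM-format values Glrb took 98.8% and 99.8% of the class.

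AMPA receptor genes were the second class by level, with sums of 32.8 and 36.9 TPM and 3 of 4 members detected. Gria3 (chrX:41400854-41678601, plus strand) had the highest level of all members, 19.8 TPM in replicate 1 and 26.0 TPM in replicate 2. Gria2, whose edited product makes AMPA channels nearly impermeable to calcium, stood at 10.9 and 8.29 TPM, and Gria4 at 1.99 and 2.30 TPM. Gria1, a main subunit of forebrain AMPA receptors, was the exception with 0.10 and 0.27 TPM from 15 and 25 counts. Gria3 exceeded Gria2 in both animals, by 1.82 times in replicate 1 and 3.14 times in replicate 2.

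Kainate receptor genes summed to 15.7 and 16.7 TPM with 3 of 5 detected. Grik5, a subunit that opens only together with a subunit of the Grik1 to Grik3 group, stood at 11.0 and 11.7 TPM. Grik2, such a partner, stood at 3.33 and 3.52 TPM, and Grik5 exceeded it by 3.31 and 3.33 times. Grik4, of the same kind as Grik5, stood at 1.05 and 1.17 TPM, whereas Grik3 was at 0.23 and 0.22 TPM and Grik1 at 0.03 and 0.06 TPM. By gene totals, the obligate partners Grik4 and Grik5 together thus exceeded Grik1 to Grik3 by 3.36 and 3.39 times. Only 62.7% and 72.4% of the Grik5 TPM lay on protein-coding transcripts, or 43.7% and 41.7% in the kallisto-format tables. On protein-coding transcripts alone Grik5 stood at 6.92 and 8.48 TPM, against 2.89 and 2.88 TPM for Grik2.

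NMDA receptors need the Grin1 subunit together with Grin2 or Grin3 subunits. Grin1 stood at 9.84 and 7.93 TPM and Grin2c, a subunit best known from cerebellar granule cells, at 7.57 and 9.17 TPM. Grin2a, Grin2b, Grin2d, Grin3a and Grin3b each stayed between 0.02 and 0.51 TPM. Grin2c exceeded the other 3 Grin2 genes together by 9.46 and 7.28 times. The ratio of Grin1 to the sum of Grin2 genes was 1.18 in replicate 1 and 0.760 in replicate 2, so which was higher differed between the animals. Of the delta receptors, which bind cerebellins rather than open to glutamate, Grid1 stood at 0.49 and 0.59 TPM.

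Among the receptors for ATP, P2rx4 alone was detected in both animals in the RSEM-format tables. P2rx4, a channel much of which resides in lysosomes (chr5:122707544-122729738, plus strand), stood at 15.5 and 17.5 TPM. Its neighbour P2rx7, the channel of macrophages that opens at high ATP, stood at 0.79 and 2.63 TPM, but at 1.60 and 2.17 TPM in the kallisto-format tables, above the detection level in both animals. P2rx5 stood at 0.36 and 1.95 TPM, and P2rx1, P2rx2, P2rx3 and P2rx6 between 0.16 and 0.92 TPM. The class sum was 18.3 TPM in replicate 1 and 24.1 TPM in replicate 2, and P2rx4 made up 84.6% and 72.4% of it.

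**Figure D2:**
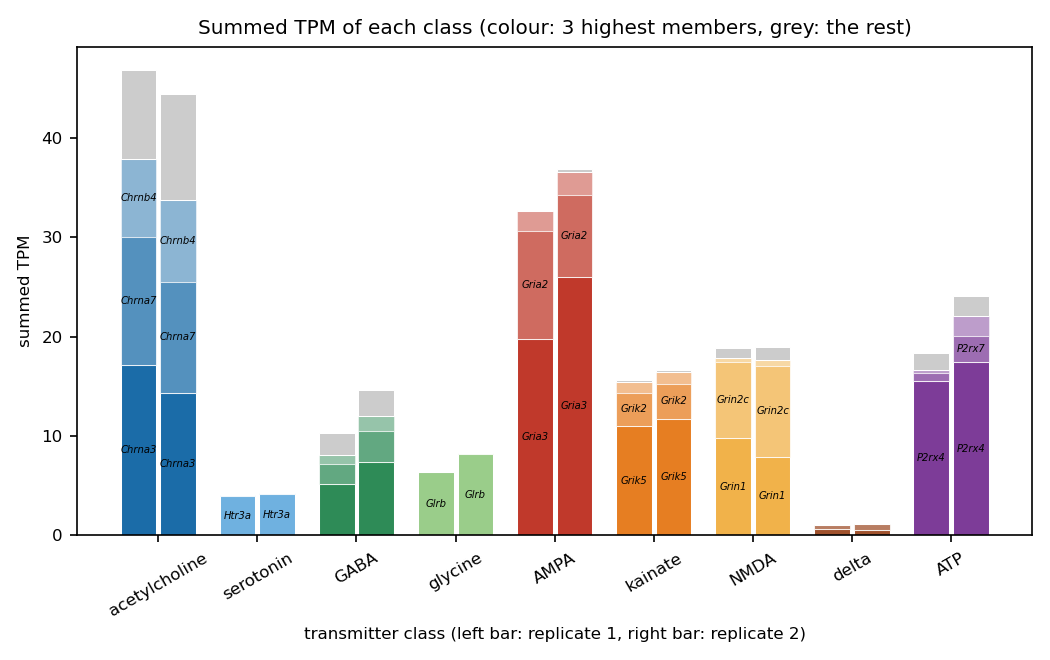
Summed TPM of each transmitter class, left bars for replicate 1 and right bars for replicate 2, stacked from the 3 highest members of the class in shades of one colour with the remaining members in grey. Acetylcholine and AMPA receptor genes hold the tallest bars in both animals (46.8 and 44.4 against 32.8 and 36.9 TPM), and single genes fill nearly the whole bar for serotonin and glycine.

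In the order of mean levels, Gria3 was followed by P2rx4 (16.5 ± 1.39 TPM), Chrna3 (15.8 ± 1.97), Chrna7 (12.04 ± 1.202), Grik5 (11.4 ± 0.488), Gria2 (9.58 ± 1.82), Grin1 (8.89 ± 1.35), Grin2c (8.37 ± 1.13), Chrnb4 (8.05 ± 0.240) and Glrb (7.30 ± 1.34). P2rx4 and Chrna3 changed places between the animals, and so did Chrna7 and Grik5, and from Gria2 to Glrb each gene's range overlapped that of the next. The deposited second quantification, in kallisto format, gave lower values for 17 of the 19 detected members, with a median ratio of the first to the second of 1.19. It placed P2rx4, with 16.3 and 18.9 TPM, above Gria3, with 13.9 and 18.4 TPM, in both animals. The first place therefore depended on the quantification.

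**Figure D3:**
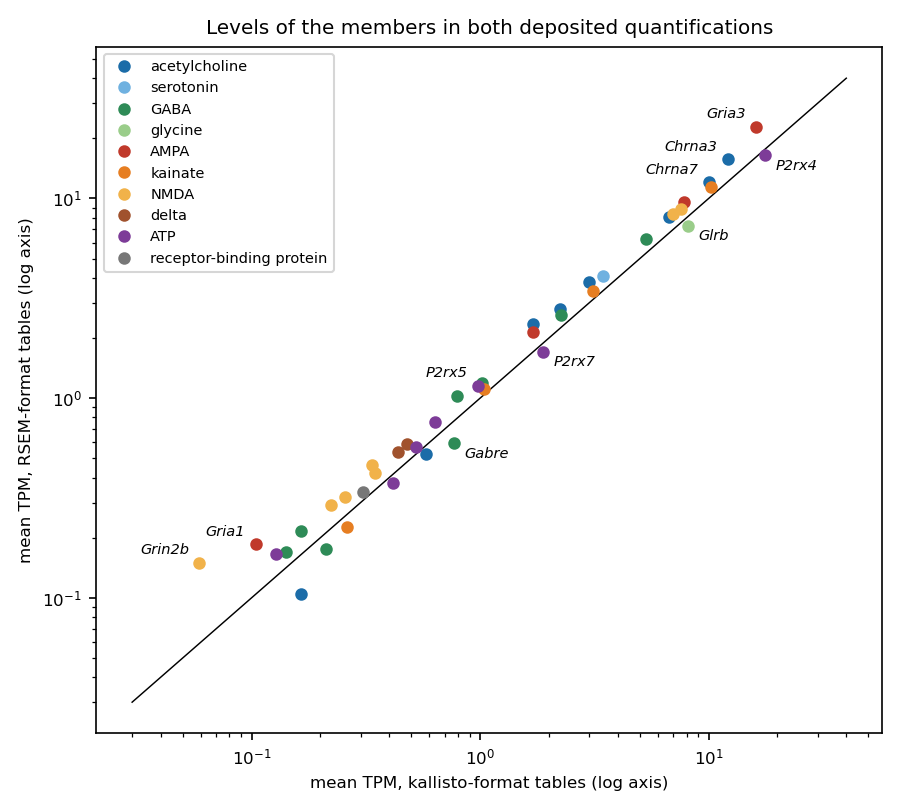
Mean TPM of the 43 members with a mean of 0.1 TPM or more, in the kallisto-format tables (x, log axis) against the RSEM-format tables (y, log axis), coloured by class, with the line of equality. Of these members 34 lie above the line, Grin2b farthest at 2.54 times, and P2rx4 and Glrb are the 2 detected members below it.

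Part of a gene's TPM can sit on transcripts that the annotation does not class as protein-coding. Over the 19 detected members the median share on protein-coding transcripts was 94.3%, and 10 members had over 90%. Chrna3, Chrnb4, Grin2c, Htr3a, Chrna4, Gria4 and Grik4 were at 100% in both animals, and Chrna7 at 91.4% and 97.2%. In contrast, Gria2 and Gria3 were among the 3 members with under 60%. Gria2 had 54.8% of its TPM in replicate 1 and 42.6% in replicate 2 on transcripts with a retained intron, a class that encodes no full receptor. Gria3 had 42.0% and 37.4% there. Counted on protein-coding transcripts alone, Gria2 stood at 4.37 TPM in replicate 1 and 4.75 TPM in replicate 2, so these transcripts were not lower in replicate 2 as the gene total was. By the same count Chrna3, not Gria3, had the highest mean of all members (15.8 against 13.1 TPM). That order held in replicate 1 (17.1 against 10.8 TPM), whereas in replicate 2 Gria3 (15.3 TPM) and P2rx4 (14.97 TPM) both exceeded Chrna3 (14.4 TPM).

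**Figure D4:**
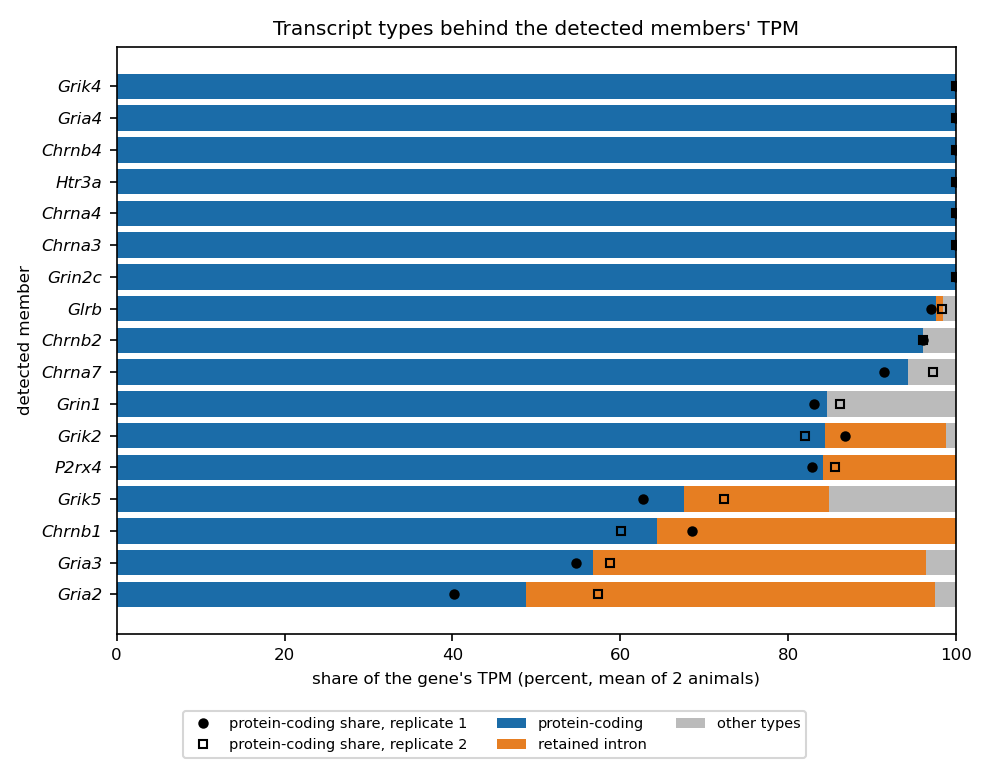
Share of the TPM of 17 detected members on protein-coding transcripts (blue), transcripts with a retained intron (orange) and other types (grey), as the mean of 2 animals; black circles and open squares give the protein-coding share in replicates 1 and 2. The lowest bars are Gria2 and Gria3, at means of 48.8% and 56.8%.

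Short transcripts also weighed on some levels, because few counts on a short transcript give many TPM. Gria3-203, an annotated coding transcript of only 322 bases, took 21.5% and 16.6% of the TPM of Gria3 from 26.4 and 28.9 counts, and the kallisto-format tables listed it at 0. Grin1 had 83.0% and 86.1% of its TPM on coding transcripts, and the animals differed in which: Grin1-201 took 28.5% in replicate 1 and 4.02% in replicate 2, and Grin1-202 took 12.96% and 41.4%. In the kallisto-format tables Grin1-201 likewise had the higher level in replicate 1 (1.95 against 0.419 TPM) and Grin1-202 in replicate 2 (1.82 against 2.68 TPM). Htr3a showed the same kind of shift, with Htr3a-201 at 2.90% and 27.9%. Such shares rest on an estimated split of reads between transcripts that overlap. Gene totals of counts do not need that split, but gene totals of TPM depend on it through transcript length.

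The animals were then compared by folds of counts scaled with TMM factors, replicate 2 over replicate 1, for the 40 members that averaged 10 counts or more. The 95% intervals in parentheses are exact conditional binomial intervals and cover counting error only. No p-value is given, because an exact two-sided permutation test of 2 paired values cannot go below 0.5. At least 2-fold higher in replicate 2 were 3 of the 40 members (7.50%), against 4.83% of the 14660 nuclear coding genes with that mean. With the interval also excluding equality there were 2 (5%, against 4.46%). At least 2-fold lower were 0 of 40, against 1.44% of coding genes by fold alone and 1.34% with the interval. The members' shares were thus near those of all coding genes. The median log2 ratio of the members, on the log2(CPM + 1) scale, was 0.06, and that of all coding genes 0.03, with 22 members higher and 18 lower. Intervals excluded equality for 14 of 40 members (9 higher, 5 lower in replicate 2), or 35.0% against 52.3% of coding genes. That share also depends on how many counts a gene has, so it does not show that members differed less. The median absolute log2 ratio was 0.191 for the members and 0.167 for coding genes.

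P2rx5 and Grin2b were the pair of members past 2-fold with an interval that excluded equality. P2rx5, a P2X subunit also used as a surface marker of brown fat cells, had 23 counts in replicate 1 and 135 in replicate 2, which is 5.05-fold higher (3.23 to 8.23). All its counts lay on 1 protein-coding transcript of the 3 annotated. In the same direction Ucp1, the uncoupling protein of brown fat, had 6 and 3727 counts, and 4 of 4 brown adipocyte markers were at least 2-fold higher, with the list summing to 16.8 and 233 TPM. Their part in the P2rx5 difference was not tested. Grin2b, an NMDA subunit of forebrain, had 13 and 42 counts, 2.78-fold higher in replicate 2 (1.46 to 5.64), but in the kallisto-format counts (35.8 and 53.4) its log2 ratio was 0.22 in place of 0.63. Gabrb1, a beta subunit with 6 and 17 counts, was past 2-fold with an interval that included equality (2.44-fold, 0.916 to 7.55).

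Among the better measured members the differences were small. P2rx7 had 103 and 218 counts, 1.82-fold higher in replicate 2 (1.43 to 2.32), beside 8 of 8 macrophage markers that were higher there, whose part was not tested. Chrna4 was 1.38-fold higher (1.21 to 1.57), Gabra3 1.48-fold (1.13 to 1.95), Gria3 1.29-fold (1.22 to 1.37), Glrb 1.14-fold (1.01 to 1.29) and Grin2c 1.12-fold (1.02 to 1.22). Lower in replicate 2 were Gabrg3 by 1.33-fold (1.06 to 1.68), Grin1 by 1.30-fold (1.19 to 1.43), Gria2 by 1.29-fold (1.19 to 1.40), Chrna7 by 1.27-fold (1.15 to 1.42) and Chrna3 by 1.27-fold (1.18 to 1.36). Chrnb4 lay at 0.963 (0.874 to 1.06), so its interval included equality and did not overlap that of Chrna3 (0.735 to 0.844), its neighbour on chromosome 9. By gene totals, subunits of 1 receptor class thus differed in both directions between the animals, as Gria3 and Gria2, or Grin2c and Grin1, did. For Gria2 this did not hold on protein-coding transcripts alone, where its level was 4.37 and 4.75 TPM.

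**Figure D5:**
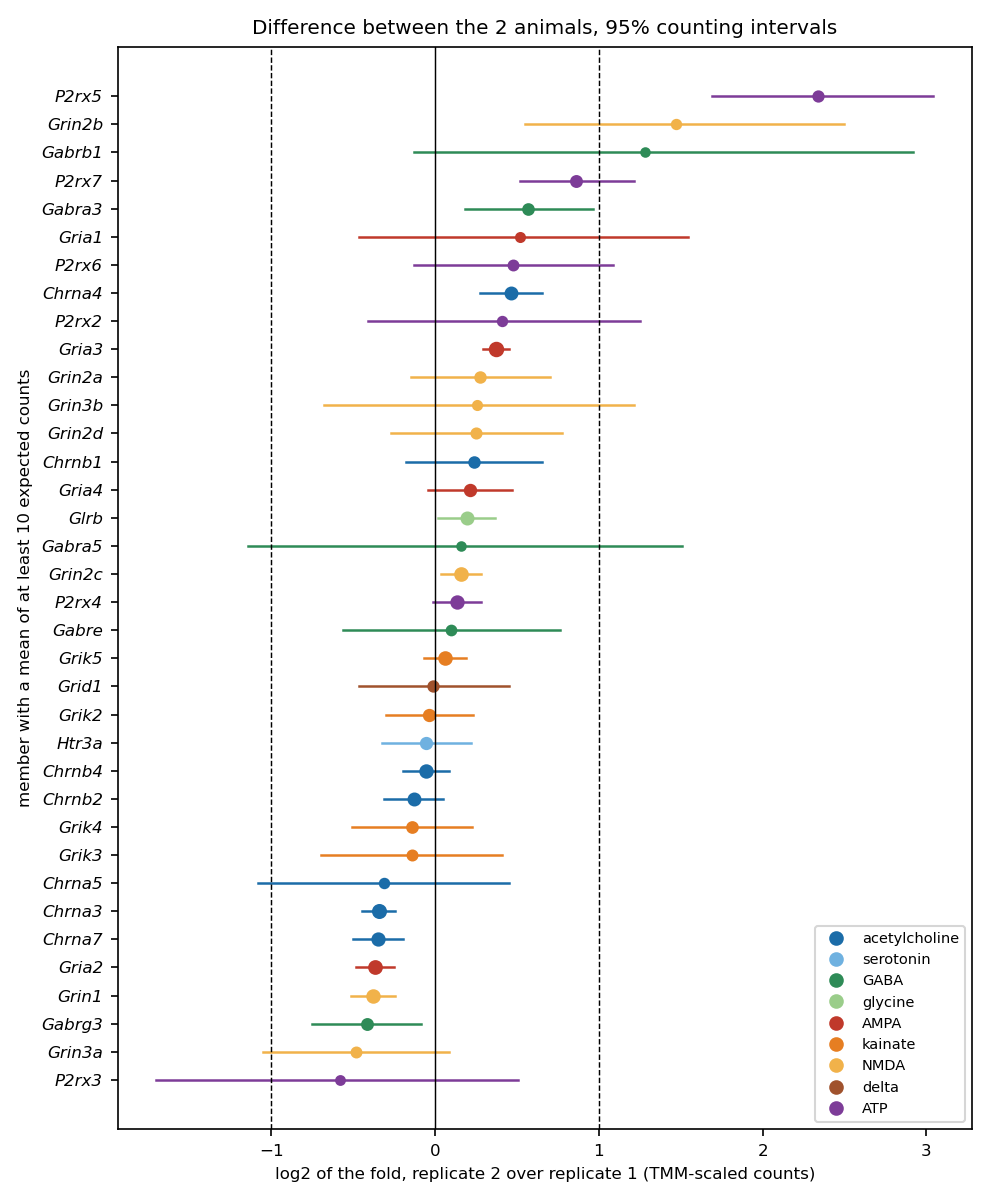
Log2 of the fold between animals (replicate 2 over replicate 1, TMM-scaled counts) with 95% counting intervals for 36 of the 40 members that averaged 10 counts or more, coloured by class; larger points have more counts, the solid line is equality and the dashed lines are 2-fold. P2rx5, Grin2b and Gabrb1 lie beyond the right dashed line, no member lies beyond the left one, and the ganglionic genes Chrna3 and Chrna7 sit left of equality.

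The nicotinic genes were set beside the chromaffin cell markers, because chromaffin cells carry ganglionic nicotinic receptors. Which cells of these glands held each nicotinic RNA was not measured. Of 14 chromaffin genes 10 were lower and 2 higher in replicate 2 with intervals that excluded equality. Such an interval, in either direction, was held by 52.3% of all nuclear coding genes that averaged 10 counts or more. High counts narrow the interval, so small differences also pass. The median log2 ratio of the 14 was -0.32, in a range from -2.32 (Pnmt) to 0.40 (Gata3). Chrna3 lay at -0.34 and Chrna7 at -0.33, but Chrnb4 at -0.05 with an interval that included equality, and Chrna4 at 0.43. Adrenal cortex markers, of cells outside the medulla, were lower too, in 8 of 8 genes with intervals that excluded equality and with a median of -0.40. Among these 8 was Hsd3b1, with high counts and a fold of only 0.959 (0.953 to 0.964). The ratio of Chga (chromogranin A, a core protein of the catecholamine granule) to Chrna3 was 70.3 and 69.9. The ratio of Th, the rate-limiting enzyme of catecholamine synthesis, to Chrna3 was 29.97 in replicate 1 and 17.8 in replicate 2. Whether the shares of medulla, cortex and fat in the samples had a part in the Chrna3 and Chrna7 differences was not tested.

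Genes that work with these receptors were counted from lists of partners. For comparison with the list counts below, 56.3% of all nuclear coding genes were detected. Of nuclear coding genes that averaged 10 counts or more, 4.83% were at least 2-fold higher in replicate 2 and 1.44% at least 2-fold lower. Of 7 genes for acetylcholine synthesis and breakdown, Ache, the acetylcholinesterase, alone was detected (7.87 and 8.13 TPM). Chat, which makes acetylcholine, had 1 count in each animal, and Slc18a3, its vesicular transporter, 0 counts in both. Bche, butyrylcholinesterase, had 30 and 386 counts (0.35 and 2.57 TPM), and Prima1, an anchor of acetylcholinesterase, stood at 0.88 and 1.11 TPM. Of 12 nicotinic assembly factors and modulators 7 were detected. The highest were Ly6e at 362 and 396 TPM, Tmem35a (NACHO, a chaperone of nicotinic receptors) at 188.6 and 199 TPM, Lynx1, a membrane-anchored modulator, at 57.9 and 67.4 TPM, and the chaperone Ric3 at 37.0 and 34.9 TPM. Tmem35a thus exceeded Chrna3 by 11.0 and 13.9 times. None of the 10 list members that averaged 10 counts or more lay 2-fold apart, while 1 of 4 such cholinergic genes, Bche, did (11.1-fold higher in replicate 2, 7.62 to 16.6).

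For the inhibitory receptors, the list of anchors and modulators also held the glycine transporter genes Slc6a5 and Slc6a9. Of its genes 12 of 12 were detected and none lay 2-fold apart. Dbi, a benzodiazepine-binding protein that also carries acyl-CoA, stood at 218 and 299 TPM, Gabarap at 157 and 151 TPM, Gabarapl1 at 108 and 123 TPM and Clptm1 at 66.9 and 66.7 TPM. Of 9 genes for GABA synthesis, transport and breakdown 3 were detected. Abat, which breaks GABA down, stood at 45.2 and 43.9 TPM, and Aldh5a1, the next enzyme of that path, at 6.81 and 8.13 TPM. Gad1, which makes GABA, stood at 3.11 and 7.76 TPM (2.39-fold higher in replicate 2, 2.00 to 2.85), and the transporter Slc6a13 at 0.49 and 3.59 TPM (6.58-fold, 4.46 to 10.1). These were the 2 members of the list past 2-fold, of 4 with enough counts.

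For the glutamate receptors, 14 of 27 auxiliary and scaffold genes were detected. Nsf, a fusion factor that binds Gria2 protein, stood at 85.2 and 82.7 TPM, the scaffolds Dlg2 and Dlg1 at 50.2 and 49.7 and at 32.1 and 29.5 TPM, and Gsg1l, an AMPA receptor auxiliary subunit, at 42.2 and 43.7 TPM. Of the 20 with enough counts 1 was at least 2-fold higher in replicate 2 and none lower. Among 8 genes for glutamate transport and D-serine, Srr, which makes the NMDA coagonist D-serine, stood at 17.9 and 20.3 TPM. The glutamate transporter Slc1a3 stood at 1.08 and 5.94 TPM, 8.30-fold higher in replicate 2 (6.41 to 10.9), while Slc1a1 and Slc17a6 lay between 0.65 and 0.85 TPM. The list had 2 of 6 genes past 2-fold, both higher.

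Of 6 genes for ATP release and breakdown 4 were detected: the ectonucleotidase Entpd1 stood at 18.92 and 11.98 TPM, Nt5e at 3.59 and 5.05 TPM, the release channel Panx1 at 4.74 and 3.85 TPM and Entpd2 at 1.54 and 3.62 TPM. Entpd2 alone was past 2-fold (2.18-fold higher, 1.67 to 2.86). Of 4 serotonin genes 2 were detected, the transporter Slc6a4 at 40.4 and 27.5 TPM and the degrading enzyme Maoa at 27.0 and 37.0 TPM. Tph1, which makes serotonin outside the brain, had 0 counts in both animals, and Tph2 stood at 0.20 and 0.62 TPM. Across the lists, breakdown and synthetic genes both lay on either side of the detection rule. The breakdown genes Ache, Abat, Aldh5a1, Maoa, Entpd1, Entpd2 and Nt5e were detected, while Bche and Entpd3 (0.48 and 0.22 TPM) were not. Of the synthetic genes Gad1 and Srr were detected, and Chat, Gad2, Tph1 and Tph2 were not.

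Many members lie in clusters. With neighbours up to 300 kb apart joined, 31 members fell into 13 clusters, and 6 clusters held a detected member. In 1 cluster all members were detected, Gria2 and Glrb on chromosome 3, an AMPA and a glycine receptor gene side by side. In the other clusters with a detected member, levels differed sharply between the highest and the lowest gene. P2rx4 lay beside P2rx7 on chromosome 5 at ratios of 19.6 and 6.65 times, or 10.2 and 8.70 times in the kallisto-format tables. Htr3a lay beside Htr3b at ratios of 134 and 46.1 times, or 41.0 and 27.3 times in the kallisto-format tables, and these ratios rest on few Htr3b counts.

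Promoter windows from RefSeq (GRCm38.p6), which run from 250 bases before to 50 after a start, were matched for 47 of the 68 members. The 15 detected members among them had a median GC content of 64.7% and a median ratio of observed to expected CpG pairs of 0.662, against 53.3% and 0.380 over 39 windows of the 32 members not detected. All detected coding genes had 61.0% and 0.749, and coding genes not detected 49.7% and 0.235. The motif GGGCGG, on either strand, stood in 73.3% of the windows of detected members and 38.5% of the others, in 62.8% of those of detected coding genes and 23.3% of those of coding genes not detected, and in 35.7% of all 32851 windows. The members therefore differed in the same direction as coding genes at large, and a match of these letters is a description of sequence only.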

How the data were processed

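Total RNA-seq libraries from 300 ng of RNA of each adrenal gland sample, made with a directional kit, were quantified one by one, per the labels. The deposited gene tables hold expected counts and TPM under the column names RSEM writes, per the file headers, with mm10 and GENCODE M21. The authors' TPM are scaled over annotated genes, 96 ERCC spike-ins and further entries. The deposited transcript tables add, per the file headers, each transcript's share of the gene total in percent. Estimated counts and TPM were also deposited in kallisto format. The sources used here do not give program versions.

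Members were summed and compared as deposited. Counts were rounded and scaled with TMM factors (edgeR 4.0.16, R 4.3.3) for folds, with exact conditional binomial 95% intervals, and DESeq2 1.42.0 gave alternative size factors. Log2 ratios add 1 CPM. A member entered folds at a mean of 10 counts, and a nuclear coding gene likewise. A count of 0 allows 3 counts. The fold script was tested on simulated data. Intervals and floors cover counting error only, since reads carry no molecular identifiers and may copy 1 molecule, and SDs are over 2 animals.

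Some members are counted but not reported by name here. Members and lists were chosen with earlier results of these data known. The named genes are every detected member, Chrna3, Chrna7 and Chrnb4, the highest member of each class, every member at least 2-fold apart with an interval excluding equality, and the 4 highest genes of each partner list. Other members named with values were chosen after their values were seen. Alternatives were other scalings, filters, pseudocounts, thresholds, the kallisto-format values and either animal alone. After seeing the data, levels on protein-coding transcripts and on transcripts of 1000 bases or more were added. The count of columns from other samples was 0. Of the marker lists given above as sums, Schwann and sustentacular cell genes (5 of 8 detected) had a median log2 ratio of 0.04. Smooth muscle and pericyte genes (5 of 6 detected) had a median of 0.09, neuronal genes of -0.15 and cortex genes of -0.40.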

Additional observations from a re-analysis of the deposited data

Results flagged for a closer look

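Some members at or near 0 in the RSEM-format gene tables carried counts in the kallisto-format tables, which the comparisons above do not use for them. Glra3, a ligand-binding glycine receptor subunit, was at 0 expected counts in both animals but had 21 and 43 estimated counts there (replicates 1 and 2). Gabra2, an alpha subunit of the GABA type A receptor, had 0 and 2 expected counts against 10.5 and 9.18 estimated counts. Chrnb3, a nicotinic beta subunit, had 1 and 0 expected counts against 10.4 and 5.32. Chrna2, a nicotinic alpha subunit, had 3 and 10 expected counts against 61 and 41 estimated counts. Grik1, a kainate receptor subunit, had 1 and 3 against 3.004 and 3.052. All lie above the 3 counts that a count of 0 allows in at least 1 animal, and there are no control samples to set them against.

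The antisense gene Chrna1os, which the choice by symbol and gene type leaves out, had 5 and 7 expected counts, while Chrna1 itself had 4 and 3.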

How the results depend on the processing

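Detection depended on the level asked for. The count of 19 members became 40 at 0.1 TPM, 39 at 10 expected counts and 30 with TPM rescaled to nuclear coding genes, and either animal alone gave 20 to 22. The count of 3 members at least 2-fold higher in replicate 2 became 10 with no filter and 0 at a mean of 100 counts, and the 0 lower became 4 with no filter and 1 with kallisto-format counts. The share over all nuclear coding genes was not computed at these other thresholds, rescaling, filters and counts. The changed counts therefore cannot be set against a background. The median log2 ratio, 0.06, ranged from 0.01 (a mean of 100 counts) to 0.11 (a pseudocount of 0.05) and stayed above 0 under every alternative tried. None of the 14 members whose interval excluded equality changed direction under DESeq2 size factors, ERCC spike-ins, total counts or kallisto-format counts.

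Mean class sums moved by more than 1 SD as follows. With kallisto-format TPM acetylcholine came to 37.1, AMPA 25.8, kainate 14.7, NMDA 15.8, delta 0.912 and serotonin 3.55 TPM. On protein-coding transcripts the sums were 43.8 for acetylcholine, 9.09 for GABA, 19.96 for AMPA, 11.9 for kainate, 17.1 for NMDA and 0.83 for delta. On transcripts of 1000 bases or more they were 9.14 for GABA, 30.1 for AMPA, 12.8 for kainate, 18.0 for NMDA and 1.06 for delta. The cause was not tested beyond the transcripts each sum leaves out. Of the 23 named members, 12 moved by more than 1 SD with kallisto-format TPM and 11 on protein-coding transcripts. P2rx5 had a log2 ratio of 1.35 by kallisto-format counts and 1.47 in the tables used.

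No paired analysis was possible because there is only 1 group. With 2 animals the SD is itself poorly known, and for members under 10 counts a difference smaller than several fold was not detectable.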

Other observations

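The delta receptor gene Grid1 stood under 1 TPM, and Cbln1, Cbln2, Cbln3 and Cbln4, which encode the cerebellins that bind delta receptors, had between 0 and 9 counts in either animal. Of the AMPA receptor auxiliary genes outside those named above, Cacng7 stood at 6.78 and 9.50 TPM and Cacng8 at 4.00 and 4.55 TPM, against 0.42 and 0.38 TPM for Cacng2. Of the kainate receptor auxiliary genes, Neto2 stood at 3.93 and 2.33 TPM and Neto1 at 0.02 and 0.24 TPM.

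The deposited TPM of P2rx7 and Grin2b in replicate 1 lay below the lower credibility bound that the same table gives for them. P2rx7 was at 0.79 TPM with bounds of 0.920 and 1.79, and Grin2b at 0.02 TPM with bounds of 0.0948 and 1.02. Among the 40 members with a mean of 10 counts or more these were the only ones in replicate 1, and replicate 2 had 0. For both genes the fold of TPM between animals was larger than the fold of counts. The bounds of the animals did not overlap for 8 of the 40, among them Gria3, Chrna4, Grin2c, P2rx7 and P2rx5, higher in replicate 2, and Chrna3 and Gria2, lower.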
